A study of Danio rerio with 15 samples.

Results

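Skeletal muscle of scaf1+/+ zebrafish was compared between fish kept on a double diet and fish kept on a standard diet. The samples were chosen by their genotype and diet labels alone, which gave 7 of the 15 libraries of the series, 3 on the double diet (fish 2, 3 and 4) and 4 on the standard diet (fish 6, 7, B and C). All fish were females of the scaf1 Δ1 line, and the scaf1+/+ fish were the wild-type relatives bred from the same founder and AB mating as the mutants. The other 8 libraries came from scaf1-/- fish, 4 on each diet, and are used below only where the diet difference of both genotypes is set side by side. Per the labels, the diets lasted 6 weeks, with Gemma dry food given 3 times per day (standard) or 5 times per day (double) to tanks of 13 fish in 2 l. The study's methods give another account, in which fish of 7 months were held at 10 per tank of mixed sex and received 2 or 4 weekday portions of 15 mg dry food plus 1 portion of artemia. Which of the sampled fish shared a tank is not given in the labels.

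Scaf1 is a protein of the inner mitochondrial membrane that joins respiratory complexes III and IV into a supercomplex. Skeletal muscle uses much of the energy that mitochondria supply, and feeding changes how much nutrient reaches it. The question here is how muscle RNA differed between the diets in fish that have Scaf1. The double diet gave more food in more feeds, so amount and number of feeds cannot be told apart. The values were estimated counts per Ensembl transcript. No table used here pairs these transcripts with genes, so each transcript is given by its Ensembl identifier, with its length and levels but with no gene name or role. For the same reason muscle markers, markers of other cell types and the scaf1 transcript itself were not looked up, and neither the labelled tissue nor the genotype was checked against RNA. In bulk muscle, fewer cells of one type and less RNA per cell cannot be told apart.

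One standard diet library stood apart. Fish C had 4045429 estimated counts, while the other 6 scaf1+/+ libraries had 11671548 to 14226976. Fish C had 15655 transcripts with at least 1 count, against 32212 to 35766 in the other 6 libraries. Its 100 most abundant transcripts took 65.7% of the counts, above the 35.3% to 59.1% of the other 6. Transcripts shorter than 1 kb took 48.0% of its counts, against 19.6% to 31.6%. The main comparisons and the fold changes of named transcripts are therefore given with and without fish C.

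**Figure D1:**
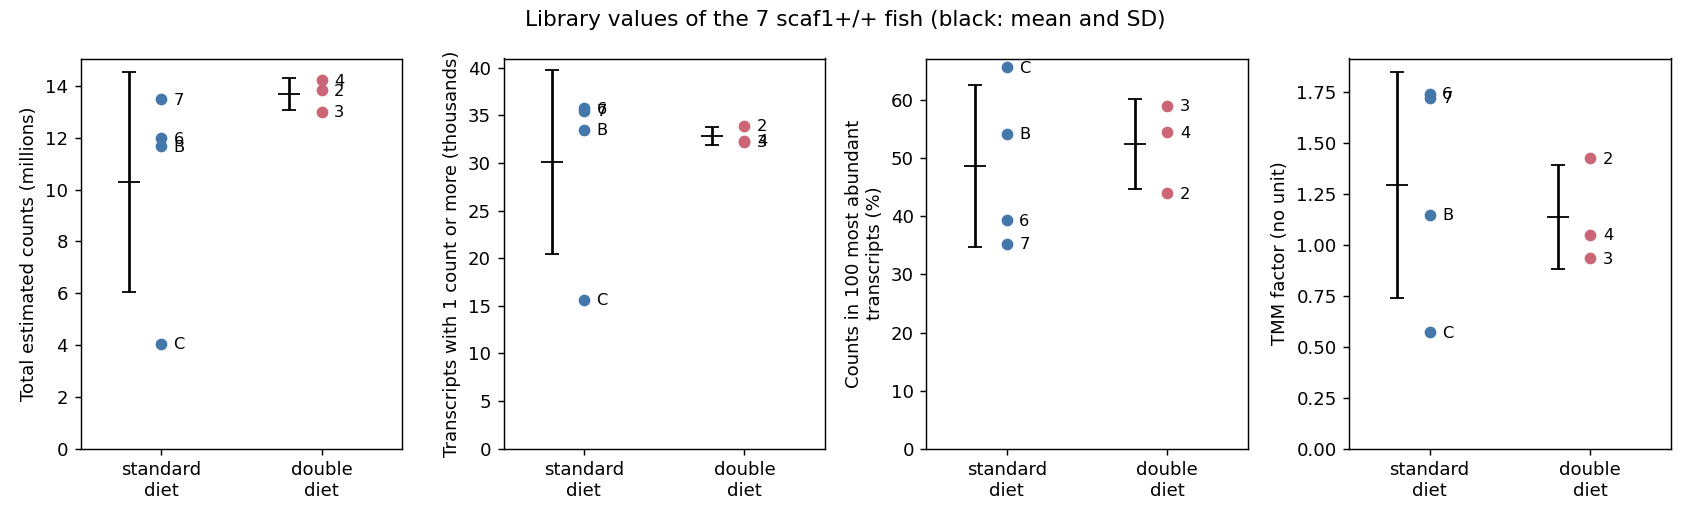
Total estimated counts, transcripts with at least 1 count, share of counts in the 100 most abundant transcripts (percent) and TMM scaling factor of each scaf1+/+ fish by diet. Points are fish with their replicate mark, and black bars are the mean and SD (n = 4 standard, n = 3 double). Fish C lies lowest for total counts (4045429) and detected transcripts (15655).

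Between the diets, no transcript passed the threshold, with or without fish C. A transcript was called when its adjusted p was under 0.05 and its log2 fold change was beyond 1 in either direction, by edgeR's quasi-likelihood test with Benjamini-Hochberg adjustment over all transcripts tested. With all 7 fish, 0 of 26970 transcripts (0%) were called, and the smallest adjusted p was 1. At an unadjusted p under 0.05 there were 1051 transcripts, of which 381 were higher and 670 lower in double diet fish, which is 3.9% of those tested. Without fish C, 0 of 26862 transcripts (0%) were called, with a smallest adjusted p of 0.454 by edgeR. There the unadjusted p was under 0.05 for 1228 transcripts, 606 higher and 622 lower, or 4.57% of those tested. The spread among fish was wide, with a common biological coefficient of variation of 0.847 over the 15 libraries and 0.756 over the 14 without fish C.

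The fish did not sort by diet. Likeness was measured as Pearson's r of log2 CPM (read counts scaled to a common library size, with TMM factors) across 26970 transcripts, which are not independent of each other and share the depth of their library. The closest pair was standard 6 and standard 7, at r = 0.903. Standard B was less like those fish (r = 0.791 and 0.783) than like double diet fish 3 and 4 (r = 0.865 and 0.853). In turn, double diet fish 2 was closer to standard 6 and 7 (r = 0.853 and 0.880) than to double 3 and 4 (r = 0.834 and 0.840). Double 3 and 4 had r = 0.875 with each other. Fish C had r = 0.498 to 0.683 with every other fish, and its highest value was with double 4.

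**Figure D2:**
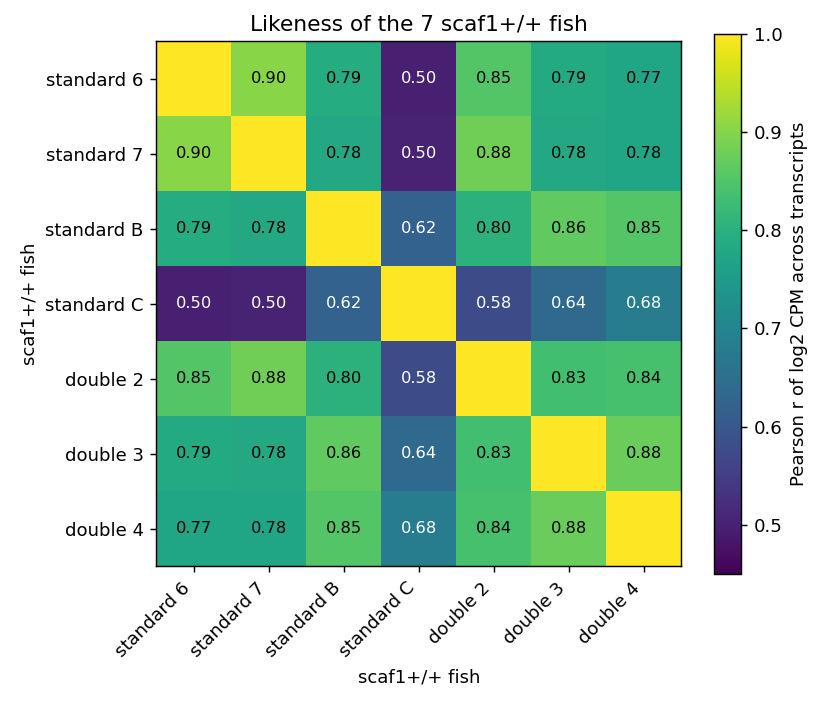
Pearson's r of log2 CPM across 26970 transcripts for each pair of the 7 scaf1+/+ fish, named by diet and replicate mark. Standard 6 and 7 form the closest pair (0.903), standard B is nearest to double 3 (0.865), and fish C has the lowest values in its row (0.498 to 0.683).

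The number of transcripts detected and the concentration of counts did not differ between diets beyond the spread of the fish. Fish 6, 7, B and C had 35766, 35460, 33493 and 15655 transcripts with at least 1 count, and double diet fish 2, 3 and 4 had 33902, 32212 and 32342. The means were 30094 ± 9678 (SD, n = 4) on the standard diet and 32819 ± 940 (SD, n = 3) on the double diet (two-sided exact permutation test, p = 0.971). Without fish C the standard diet mean was 34906 ± 1234 (SD, n = 3) and the direction turned, with fewer transcripts on the double diet (exact permutation test, p = 0.2). The 100 most abundant transcripts took 39.4%, 35.3%, 54.3% and 65.7% of the counts in fish 6, 7, B and C, and 44.0%, 59.1% and 54.5% in fish 2, 3 and 4. Fish B and C thus lay among or above the double diet fish. The difference of the means was 3.87 percentage points with fish C (exact permutation test, p = 0.686) and 9.54 without it (exact permutation test, p = 0.2). With 4 against 3 fish the smallest possible p is 0.0286, and with 3 against 3 it is 0.1.

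The share of counts by transcript length was compared next, and no class passed the test. Transcripts over 8 kb took 2.83%, 2.17%, 2.76% and 4.48% of the counts in fish 6, 7, B and C and 1.77%, 1.72% and 2.16% in fish 2, 3 and 4. The closest fish were 7 and 4, and the ranges did not overlap, at means of 3.06% ± 0.992 (SD, n = 4) and 1.88% ± 0.243 (SD, n = 3). Transcripts of 4 to 8 kb took 17.5%, 15.6% and 15.4% in fish 6, 7 and B, above the 12.4%, 12.7% and 11.3% of the double diet fish, but fish C had 8.25%. The opposite order was seen for 1 to 2 kb, at 33.6%, 35.7%, 37.6% and 27.2% on the standard diet and 38.2%, 40.4% and 39.5% on the double diet. Over the 12 library values compared between diets, the smallest exact permutation p with fish C was 0.0571 (adjusted p = 0.343), and none passed. Without fish C the smallest exact permutation p was 0.1 (adjusted p = 0.2). That is the smallest possible there, so no value could pass. The shares of 1 to 2 kb, 4 to 8 kb and over 8 kb were at that limit, with groups that did not overlap.

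Whether abundant transcripts were higher on the double diet depended on fish C. Over all tested transcripts the median log2 fold change (double minus standard) was -0.10 with fish C and -0.16 without it, after TMM scaling. Among the 100 most abundant transcripts it was 0.04 with fish C and 0.74 without it, and 51% and 93% of them, respectively, had a higher fitted level on the double diet. For ranks 101 to 300 the medians were -0.09 and 0.74, and for ranks 301 to 1000 they were 0.04 and 0.42. Beyond rank 10000 both were below 0, at -0.16 and -0.25. Of the 100 most abundant transcripts, 9% reached an unadjusted edgeR p under 0.05 with fish C and 3% without it. Beyond rank 10000 the shares were 4.25% and 4.89%. The TMM factors were 1.74, 1.72, 1.15 and 0.57 in fish 6, 7, B and C, and 1.42, 0.93 and 1.05 in fish 2, 3 and 4. Fish B was inside the double diet range, while fish 6 and 7 were above it. By the share of counts in the 100 most abundant transcripts, fish B (54.3%) was also inside the double diet range. Fish 6 and 7 (39.4% and 35.3%) were below that range. The diets overlapped in the TMM factors with and without fish C (exact permutation test, p = 0.657 and 0.2). Their part in the difference by abundance was not tested.

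**Figure D3:**
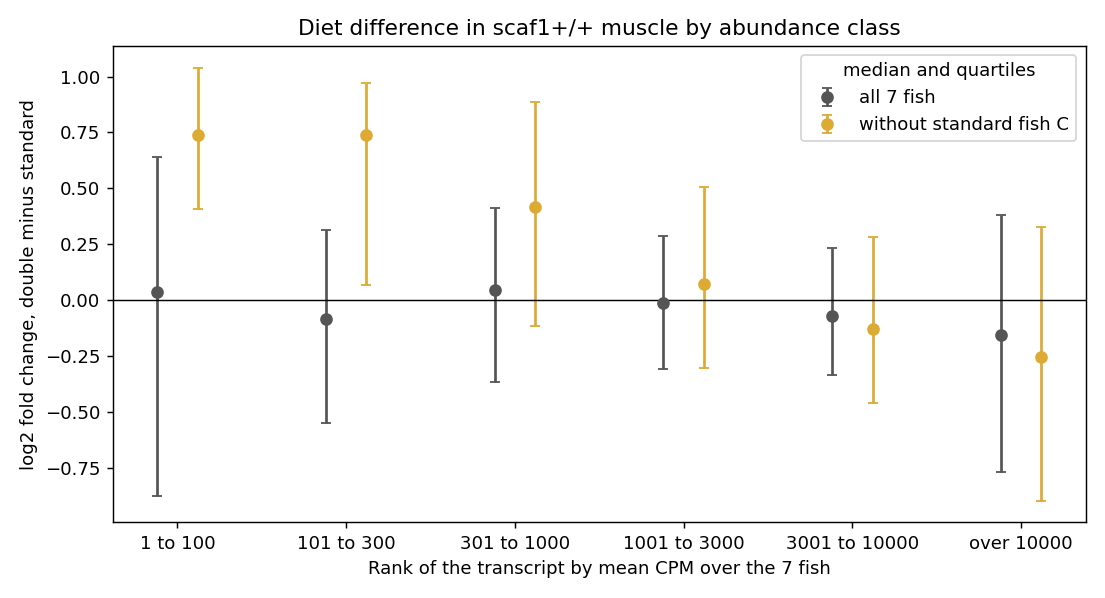
Median log2 fold change (double minus standard, TMM-scaled) of transcripts in 6 classes of abundance, ranked by mean CPM over the 7 scaf1+/+ fish. Points are medians and bars are quartiles over transcripts. Without fish C the 100 most abundant transcripts had a median of 0.74, while with all 7 fish it was 0.04.

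The most abundant transcripts themselves varied widely within a diet. Levels here are in TPM, a share of all transcripts that adjusts for transcript length. ENSDART00000169420.2 (811 bases) had the highest mean, at 37056, 26698, 58409 and 31620 TPM in fish 6, 7, B and C and 42373, 53316 and 51168 TPM in fish 2, 3 and 4. Its standard diet fish B was the highest of the 7. ENSDART00000077471.6 (416 bases) had 8234, 9001, 14797 and 111500 TPM in fish 6, 7, B and C and 17551, 17671 and 28196 TPM on the double diet. The double diet fish were all above fish 6, 7 and B and far below fish C, so its log2 fold change was -1.97 with fish C and 1.56 without it (by edgeR, fitted across all transcripts, unadjusted p = 0.188 and 0.125). ENSDART00000028219.7 (648 bases) had 19528, 14490, 26513 and 35957 TPM on the standard diet and 27511, 34890 and 37451 TPM on the double diet, with fish C inside the double diet range. These transcripts were chosen as the leading ones by mean TPM, and none passed the test.

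Counted transcript by transcript, the fish of the 2 diets did not overlap in a small part of the transcripts. Of 11167 transcripts with a mean of at least 5 CPM over the 7 fish, 237 had all 3 double diet fish above all 4 standard diet fish (2.12%) and 94 had them all below (0.842%). Without fish C, 710 were above (6.36%) and 446 below (3.99%). With the diet labels shuffled over 7 fish, 1 of 35 arrangements (0.0286) puts the double diet fish above all others, and 1 puts them below. Over 6 fish it is 1 of 20 in each direction. The counts were not tested against these shares, and they do not show by themselves that the diets differed. A set of transcripts whose groups do not overlap has differing group means by construction, so the counts are given as a description. The levels of the scaf1-/- fish were not used in that choice beyond the filter and the scaling. In them, 64.6% of the 237 were also fitted higher on the double diet, against 50.2% of all 11167, and 45.7% of the 94 were also lower, against 49.8%. For the sets formed without fish C the shares were 74.9% of 710 and 74.7% of 446, with medians of 0.27 and -0.39 on the log2 scale in scaf1-/- fish. The median of all 11167 there was 0.002. The TMM factors of scaf1-/- standard diet fish 6, A, B and C were 1.59, 1.36, 0.63 and 0.59. Their 100 most abundant transcripts took 41.8%, 47.3%, 64.65% and 66.7% of the counts, so fish 6 and A differed from fish B and C. On the double diet the scaf1-/- factors were 0.64 to 1.09. The part of these library differences in the shares was not tested.

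The transcripts named next are the 10 with the smallest unadjusted edgeR p in each direction among those at 5 CPM or more whose diets did not overlap over the 7 fish. None of the 20 was called by edgeR (adjusted p = 1 for each with fish C and 0.964 for each without it). The order of their p and their separation are how they were chosen, and levels are TMM-scaled CPM. Other tools, described further below, differed. Of the 10 higher, a limma fit with a weight per library had 8 at adjusted p under 0.05 with fish C and 10 without it. DESeq2 had 3 and 4. Of the 10 lower, the limma fit had 0 and 1, and DESeq2 had 2 and 2. These calls rest on the same fish that were used to choose the transcripts.

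Among the 10 that were higher on the double diet, the lead transcript was ENSDART00000144966.2 (841 bases). It had 0.39, 0.39, 1.80 and 0 CPM in fish 6, 7, B and C and 5.70, 32.0 and 13.4 CPM in fish 2, 3 and 4. Even the lowest double diet fish was above fish B, the highest standard diet fish, and the log2 fold change was 4.56 ± 1.04 (SE), or 4.34 ± 1.103 without fish C. ENSDART00000007961.8 (2250 bases) had 6.13, 6.41, 16.1 and 0 CPM on the standard diet and 35.4, 156 and 78.7 CPM on the double diet. Its groups were again apart, with double 3 highest, and the log2 fold change was 3.62 ± 0.93 (SE), or 3.24 ± 0.74 without fish C. ENSDART00000130632.4 (2522 bases) differed in that fish C was the highest standard diet fish, with 3.33, 4.16, 11.03 and 13.5 CPM against 16.9, 50.1 and 36.1 CPM. The difference was 2.13 ± 0.56 (SE) on the log2 scale and 2.48 ± 0.57 without fish C.

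Fish B was the nearest standard diet fish to the double diet in several others. ENSDART00000153726.2 (5716 bases) had 4.005, 5.76, 17.6 and 7.41 CPM in fish 6, 7, B and C and 30.05, 100.9 and 21.9 CPM in fish 2, 3 and 4. The gap between fish B and double 4 was small beside the spread of the double diet fish, and the log2 fold change was 2.55 ± 0.69 (SE), or 2.48 ± 0.78 without fish C. ENSDART00000166377.3 (4511 bases) had 8.78, 11.1, 39.4 and 10.9 CPM on the standard diet and 41.5, 77.8 and 103 CPM on the double diet, with fish B just under double 2, a log2 fold change of 2.07 ± 0.64 (1.91 ± 0.69 without fish C). ENSDART00000013411.6 (1841 bases) had 19.7, 13.9, 33.5 and 8.29 CPM against 36.6, 59.6 and 66.8 CPM, with fish B again nearest and a log2 fold change of 1.52 ± 0.46 (1.28 ± 0.41 without fish C). ENSDART00000161201.2 (5500 bases) had the smallest difference of the 10, at 11.4, 11.5, 17.6 and 10.03 CPM against 20.8, 38.6 and 34.1 CPM, a log2 fold change of 1.297 ± 0.38 (1.21 ± 0.38 without fish C).

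The remaining 3 were listed at 0 in fish C. ENSDART00000157416.3 (1072 bases) had 0.43, 0.30, 2.40 and 0 CPM on the standard diet and 7.89, 20.4 and 7.80 CPM on the double diet, a log2 fold change of 3.801 ± 1.04 (SE), or 3.55 ± 1.08 without fish C. ENSDART00000135633.3 (2170 bases) had 4.39, 2.99, 5.85 and 0 CPM against 16.4, 32.3 and 20.1 CPM, and its log2 fold change was 2.73 ± 0.76 (2.38 ± 0.55 without fish C). ENSDART00000157833.2 (869 bases) had 1.83, 1.99, 2.40 and 0 CPM against 8.05, 9.16 and 19.2 CPM, a log2 fold change of 2.85 ± 0.88 (2.55 ± 0.82 without fish C). In all, 5 of the 10 had no count in fish C. Without fish C the unadjusted edgeR p of the 10 ran from 0.00078 to 0.0168, and it was under 0.05 for all 10.

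**Figure D4:**
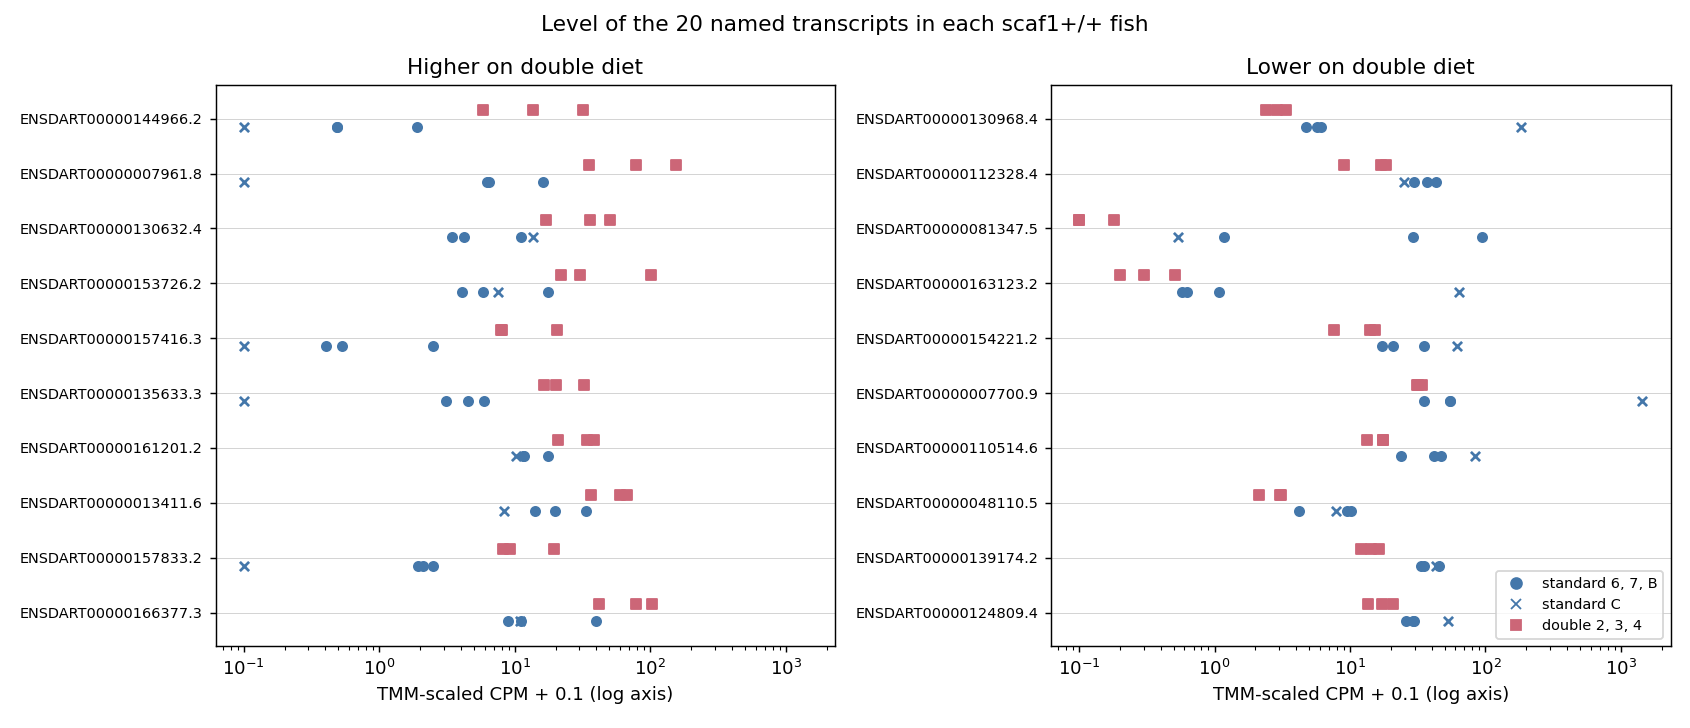
TMM-scaled CPM plus 0.1 (log axis) of the 20 named transcripts in each scaf1+/+ fish, with circles for standard 6, 7 and B, crosses for standard C and squares for the double diet. In the lower set fish C reaches 1437 CPM for ENSDART00000007700.9, while the other 6 fish lie between 31.1 and 54.9.

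Of the 10 that were lower on the double diet, 6 had their highest level in fish C. ENSDART00000130968.4 (4967 bases) had 5.597, 6.02, 4.65 and 184 CPM in fish 6, 7, B and C and 2.29, 2.81 and 3.29 CPM in fish 2, 3 and 4. Fish C alone set the size of the difference, which was -4.14 ± 1.196 (SE) on the log2 scale with it and -0.95 ± 0.33 without it, although the other 6 fish were also apart. ENSDART00000007700.9 (4192 bases) had 54.5, 54.9, 34.9 and 1437 CPM against 34.1, 31.5 and 31.1 CPM, and its log2 fold change went from -3.61 to -0.58 without fish C. ENSDART00000163123.2 (455 bases) had 0.53, 0.48, 0.98 and 63.2 CPM against 0.10, 0.41 and 0.20 CPM, with -6.05 and -1.46. For these last 2 transcripts the unadjusted edgeR p without fish C was 0.176 and 0.127.

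In the remaining transcripts the fold change moved less when fish C was left out. ENSDART00000112328.4 (3825 bases) had 36.7, 29.6, 42.9 and 24.9 CPM in fish 6, 7, B and C and 8.96, 16.8 and 18.2 CPM in fish 2, 3 and 4, with a log2 fold change of -1.19 ± 0.36 (SE) and -1.31 ± 0.33 without fish C. All 4 standard diet fish were above the double diet fish by a clear gap in both this transcript and ENSDART00000139174.2 (1828 bases), which had 45.5, 33.5, 35.1 and 43.2 CPM against 16.4, 14.3 and 11.97 CPM, a log2 fold change of -1.47 ± 0.51 (-1.42 ± 0.52 without fish C). ENSDART00000048110.5 (2406 bases) had 10.1, 4.11, 9.45 and 7.85 CPM against 2.04, 2.97 and 2.96 CPM, with fish 7 near the double diet and a log2 fold change of -1.57 ± 0.54 with and without fish C. ENSDART00000110514.6 was the longest of the 20 at 9838 bases, and had 46.9, 41.6, 23.6 and 83.7 CPM against 13.2, 17.5 and 17.3 CPM, a log2 fold change of -1.61 ± 0.53 (-1.22 ± 0.49 without fish C).

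Among the last 3, ENSDART00000154221.2 (2541 bases) had 17.3, 20.5, 35.1 and 61.9 CPM on the standard diet and 7.54, 15.1 and 13.9 CPM on the double diet. Its log2 fold change was -1.46 ± 0.46 (SE), and -0.99 ± 0.36 without fish C, inside the limit of 1. ENSDART00000124809.4 (4124 bases) had 25.9, 29.1, 29.6 and 52.8 CPM against 20.7, 13.5 and 17.0 CPM, with fish 6 near double 2, and its log2 fold change went from -1.003 ± 0.35 to -0.72 ± 0.28 without fish C. ENSDART00000081347.5 (1972 bases) varied widely among fish of one diet, at 29.0, 1.08, 94.8 and 0.44 CPM on the standard diet and 0, 0.08 and 0 CPM on the double diet. The double diet value rests on 1 count over the 3 fish, so no fold is given.

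ENSDART00000110943.5 (3431 bases) is given because an earlier account of these data named it. It had 1.40, 1.299, 1.73 and 0 CPM in fish 6, 7, B and C and no count in any double diet fish. With each double diet library set to a floor of 3 counts (mean over those fish), it was at least 5.51-fold lower on the double diet, or at least 7.35-fold without fish C. The adjusted edgeR p was 1 with fish C and 0.454 without it, while DESeq2 gave adjusted p = 0.0014 and 0.000473. The limma fit with a weight per library gave adjusted p = 0.0386 and 0.0382. In scaf1-/- fish it was present on both diets, at 2.105 ± 1.08 CPM under standard feeding and 2.42 ± 1.07 CPM under double feeding (SD, n = 4 each). The difference between the diet effects of the genotypes did not pass in the edgeR fit across all transcripts, with an adjusted p of 1, or of 0.551 without fish C.

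Few transcripts were present in every fish of one diet and absent from the other. At 10 counts or more in each fish of a diet and none in the other, there were 3 for the standard diet and 7 for the double diet over the 7 fish, of 57775 transcripts in the files (0.00519% and 0.0121%). Without fish C there were 57 and 11 (0.0987% and 0.019%), and 53 of the 57 had no count in fish C either. The 57 had means of 0.67 to 26.4 CPM in fish 6, 7 and B. A 0 in fish C allows up to 1.31 CPM (3 counts), so for the lowest of the 57 it does not show absence. Fish C had only 15655 transcripts with at least 1 count, and the share of comparable transcripts at 0 in it is not given here. Fish 6, 7 and B had 33493 to 35766 such transcripts, and fish 2, 3 and 4 had 32212 to 33902. The part of these differences in the counts of 57, 11 and 53 was not tested. The largest of the 57 by level was ENSDART00000180834.1 (8820 bases), with 24.8, 19.3 and 35.04 CPM in fish 6, 7 and B and no count in fish C or in fish 2, 3 and 4. At a floor of 3 counts per library, which covers counting error only, the double diet fish were at least 131-fold lower than fish 6, 7 and B. In scaf1-/- fish on the double diet the transcript had a mean of 23.4 CPM, with 1 of the 4 fish at 0. On the standard diet the scaf1-/- mean was 7.04 CPM, with 2 of the 4 fish at 0. ENSDART00000146185.2 (841 bases) had 6.32, 18.0 and 42.4 CPM in fish 6, 7 and B and none in fish C or in fish 2, 3 and 4, whose level was at least 111-fold lower than in those 3 fish. In scaf1-/- fish it was also without a count in all 4 on the double diet, while on the standard diet 2 of the 4 had none and the mean was 24.0 CPM.

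In the other direction, ENSDART00000139053.3 (2451 bases) had 5.602, 8.502 and 5.98 CPM in double diet fish 2, 3 and 4 and no count in any of the 4 standard diet fish. Its adjusted p was 1 by edgeR and 0.0491 by DESeq2 with fish C. In scaf1-/- fish its mean was 2.66 CPM on the standard diet, with 1 of the 4 fish at 0. On the double diet the scaf1-/- mean was lower, at 1.23 CPM, with 2 of the 4 fish at 0. ENSDART00000170154.2 (976 bases) had 6.11, 6.60 and 20.03 CPM on the double diet and none in fish 6, 7 and B, but 123 CPM in fish C. Fish C had counts of 4 of the 11 transcripts found only on the double diet without it. Of the 57 and the 11, 0 showed the full pattern in scaf1-/- fish, with counts in all 4 fish of the same diet and none in the 4 of the other. The share of all transcripts with that pattern in scaf1-/- fish is not given here. Over the 7 scaf1+/+ fish it was rare, at 0.00519% and 0.0121% of 57775 transcripts with 10 counts or more. The 0 therefore does not show that the pattern is particular to scaf1+/+ fish.

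The diet difference in scaf1-/- fish was set beside that in scaf1+/+ fish for the 20 named transcripts. The scaf1-/- fish shared the edgeR fit, and so the estimate of the spread behind the p used to choose the 20, but their diet difference was not used. Of the 10 higher transcripts, 6 were also fitted higher on the double diet in scaf1-/- fish, and of the 10 lower ones, 4 were also lower. Over all 26970 transcripts, 43.3% were fitted higher and 56.5% lower in scaf1-/- fish. At an unadjusted edgeR p under 0.05 in scaf1-/- fish there were 0 of the 10 higher and 2 of the 10 lower transcripts, beside 5.69% of all tested, and 0 of 26970 (0%) were called. ENSDART00000139174.2 was one of these 2, at 30.8 ± 20.3 CPM under standard and 13.3 ± 3.64 CPM under double feeding in scaf1-/- fish (SD, n = 4 each). The other, ENSDART00000081347.5, went the opposite way, from 0.10 ± 0.08 CPM to 54.6 ± 97.5 CPM (SD, n = 4 each), with a single scaf1-/- double diet fish at 200.3 CPM.

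The difference between the diet effects was tested directly. With all 15 libraries, 0 of 26970 transcripts (0%) passed in edgeR. Before adjustment 1044 were under 0.05, which is 3.87% of those tested. By DESeq2 there were 40 calls of 48364 tested, and by the limma fit with a weight per library 0 of 26970. Without fish C, 1 of 26862 was called (0.00372%), ENSDART00000147947.2 (8535 bases), which is outside the rule for named transcripts. DESeq2 without fish C called 44 of 48596, and the weighted limma fit 0 of 26862, with a smallest adjusted p of 0.139. In scaf1+/+ muscle ENSDART00000147947.2 had 58.9, 82.9, 44.9 and 0 CPM in fish 6, 7, B and C and 50.7, 19.1 and 34.5 CPM in fish 2, 3 and 4. Apart from fish C, all scaf1+/+ fish had it. In scaf1-/- fish it had 18.3 ± 8.82 CPM (SD, n = 4; 10.2 to 29.8) under standard feeding, while all 4 double diet fish had none, at least 69-fold lower. The difference of the effects (scaf1+/+ minus scaf1-/-) was 10.25 on the log2 scale, with an adjusted edgeR p of 0.0475 without fish C and 1 with it. It is a fitted value against a group at 0 and no bound.

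Other tools called transcripts that edgeR did not. DESeq2 is the tool the study used, there with shrunken log2 fold changes. The study reports its results by gene, while each test here is of a transcript, so the counts below are not comparable with the study's. For these diets in scaf1+/+ muscle, the study reports higher expression of oxidative phosphorylation genes under double feeding. That could not be looked at here, because the transcripts were not linked to genes. Here, without shrinkage, it called 42 of 48364 transcripts with fish C (0.0868%), 12 higher and 30 lower. Without fish C it called 73 of 48596 (0.15%), 41 higher and 32 lower. The 2 lists had 28 transcripts in common, 66.7% of the first and 38.4% of the second. All fish of 1 diet were at 0 in 31 of the 42 and, leaving out fish C, in 47 of the 73. The groups did not overlap in 13 of the 42 and in 51 of the 73. Among the 11167 transcripts at 5 CPM or more, that held for 2.12% higher and 0.842% lower. Without fish C the shares were 6.36% and 3.99%. Shares over all transcripts tested by DESeq2 are not given here, for these or for the groups at 0. Calls are picked for a diet difference, so these counts only describe them. With shrunken fold changes, DESeq2 called 17 of 48364 with fish C (8 higher, 9 lower) and 37 of 48596 without it (19 higher, 18 lower).

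A limma fit with an estimated weight per library gave the most calls, and without fish C their number changed with which further standard diet fish was left out. It called 140 of 26970 transcripts with fish C (0.519%), 95 higher and 45 lower, and 629 of 26862 without it (2.34%), 496 higher and 133 lower, including all of the 140. The weights without fish C were 3.36 for fish 6, 1.14 for fish 7 and 0.39 for fish B. For double diet fish 2, 3 and 4 they were 0.52, 1.57 and 1.60. The weighted fit was not repeated with a double diet fish left out. Fish B lay inside or past the double diet range in 278 of the 496 higher and 25 of the 133 lower transcripts. The share of all tested transcripts with fish B in that position is not given here. At an unadjusted p under 0.05 the weighted fit had 6917 of 26970 transcripts with fish C (25.6%) and 8275 of 26862 without it (30.8%). By edgeR these shares were 3.9% and 4.57%. When fish 6 was left out along with fish C, 0 were called, with 1175 of 26862 at an unadjusted p under 0.05. With fish 7 left out in its place there were 2 calls, and 1598 at that p. With fish B left out there were 2221 calls, and 8618 at that p. The 140 calls with all 7 fish were not refitted in this way. The part of the likeness of fish B to double 3 and 4 in these counts was not tested.

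**Figure D5:**
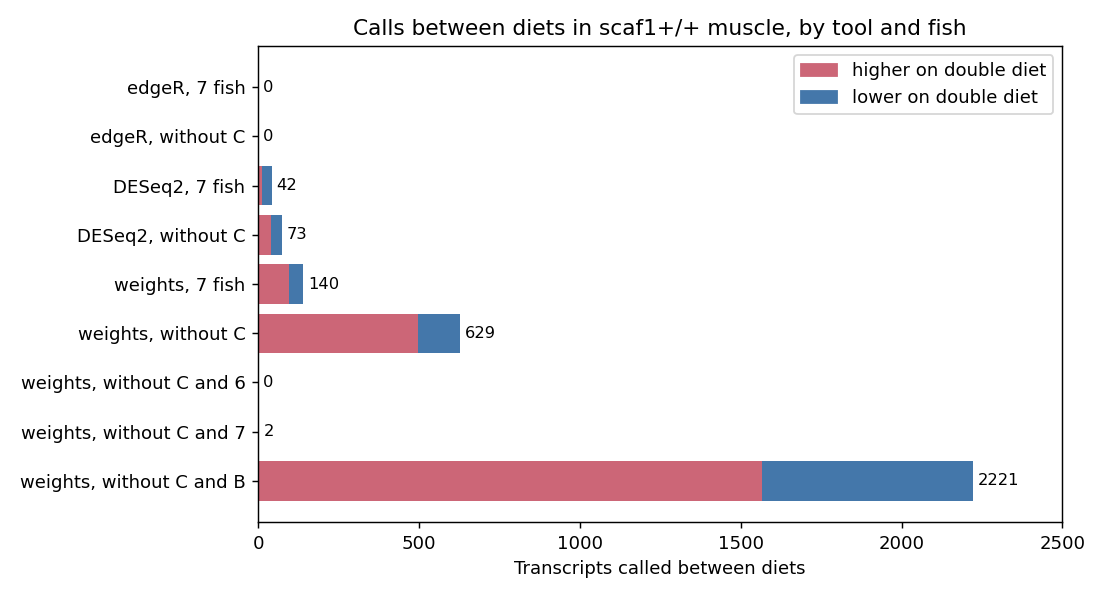
Number of transcripts called between the diets in scaf1+/+ muscle by each tool, with all 7 fish, without fish C, and, for the weighted fit, without fish C and 1 further standard diet fish. Bars are split by direction (double relative to standard). The edgeR count was 0 both times, and the weighted count ranged from 0 to 2221 with the standard diet fish left out.

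Without fish C, 30 transcripts were called both by DESeq2 and by the weighted fit, 41.1% of the DESeq2 calls and 4.77% of the weighted ones. They included ENSDART00000144966.2, ENSDART00000007961.8, ENSDART00000130632.4, ENSDART00000135633.3 and ENSDART00000112328.4 of the named transcripts. ENSDART00000110943.5, named by the earlier account, was also among the 30. Others, chosen after their values were seen, show what such calls looked like. ENSDART00000139999.2 (3263 bases) had 12.8, 8.36 and 15.6 CPM in fish 6, 7 and B and 31.4, 72.0 and 90.2 CPM in fish 2, 3 and 4, with fish C at 57.1 CPM inside the double diet range. ENSDART00000144335.2 (2623 bases) had 5.74, 3.64, 1.65 and 3.05 CPM on the standard diet and 0.56, 0.08 and 0.54 CPM on the double diet, so that all 4 standard diet fish were above. ENSDART00000129476.3 (4255 bases) had 24.1 and 16.4 CPM in fish 6 and 7, but 3.98 and 1.31 CPM in fish B and C, beside 2.70, 3.30 and 3.50 CPM on the double diet. Here the call separated fish 6 and 7 from the rest.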

How the data were processed

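Muscle RNA of 15 female zebrafish was sequenced. Reads were checked by the authors with FastQC 0.11.8, pseudo-aligned with Kallisto to the Ensembl release 94 cDNA, and deposited as estimated counts (expected counts) per transcript with length and effective length. The labels also name sleuth, and the methods DESeq2.

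Estimated counts were rounded to whole numbers. Length and effective length were deposited too, and TPM were computed from them here. Transcripts passing filterByExpr (smallest count 10) were TMM-scaled, and edgeR 4.0.16 under R 4.3.3 gave the main test (quasi-likelihood with robust estimation, Benjamini-Hochberg, 1 coefficient per group, 15 libraries or 14 without fish C). Alternatives used DESeq2 1.42.0, limma 3.58.1, other scalings, filters and samples. The DESeq2 input held every transcript with any count. Tests were tried on simulated data. Library values had exact permutation tests. A count of 0 allows up to 3 counts, for counting error only. Named transcripts followed the rule stated in the report. Transcripts, rules and lists were chosen with earlier results of these data known. Planned gene lists and markers were not used, because no table here links transcripts to genes. Each library is 1 fish. By the study's methods whole tanks were assigned to a diet, and which sampled fish shared a tank is not stated. The p-values treat each fish as a replicate and set the diet difference against the spread between fish. Diet and tank cannot be told apart.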

Additional observations from a re-analysis of the deposited data

Results flagged for a closer look

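In the standard diet group of 4 scaf1+/+ fish, 26 sets of values were looked at for a fish far from the other 3, and 6 had one. Chance gives about 1 in 20 for independent sets. Most of these sets are transcripts chosen for the separation of the diets, and all share the same fish, so that rate is no yardstick here. Fish C stood apart for the number of transcripts with at least 1 count, at 15655. It was also far above the others for ENSDART00000130968.4 (184.05 CPM), ENSDART00000163123.2 (63.238 CPM), ENSDART00000007700.9 (1437.5 CPM) and ENSDART00000124809.4 (52.771 CPM), all in the set that was lower on the double diet. Fish B stood apart for ENSDART00000166377.3, at 39.387 CPM.

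The diet effect on ENSDART00000147947.2 differed between genotypes by 10.25 on the log2 scale (scaf1+/+ minus scaf1-/-) by edgeR without fish C, with an adjusted p of 0.0475. With all 15 libraries the adjusted edgeR p was 1.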

How the results depend on the processing

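No paired analysis was possible because the scaf1+/+ fish of the diets share no replicate mark. Against 0 calls between diets by edgeR with all 7 fish, DESeq2 gave 42 calls, DESeq2 with shrinkage 17, limma on log2(TPM + 1) 1 and limma with a weight per library 140. Without fish C, against 0 calls, the counts were 73, 37, 4 and 629, and limma on log2(TPM + 0.1) gave 2. Leaving out 1 further library gave 0 to 1 calls by edgeR with or without fish C. The transcript called without standard 7 was ENSDART00000125122.4 (41 counts in fish 7, 0 in fish 6, B and C), and that called without double 4 was ENSDART00000048775.9 (68 counts in double 4, 0 in double 2 and 3). In the weighted fit without fish C, chosen after seeing the data, leaving out 1 more standard diet fish gave 0 to 2221 calls. The difference of diet effects had 0 calls by edgeR and 40 by DESeq2. Without fish C (added after seeing the data) it had 1 by edgeR, 44 by DESeq2 and 0 by the weighted limma fit. Only scaf1+/+ libraries in the fit, median-ratio scaling, the adjusted p as the sole criterion, or every transcript with a count each left 0 edgeR calls. The double diet minus standard diet difference in detected transcripts turned from 2725 to -2088 without fish C. For the 22 transcripts followed across settings, 322 of 346 values kept their direction and side of the threshold, 21 passed it and 3 reversed, all for ENSDART00000147947.2, at 0.27 with shrinkage, 0.18 on log2(TPM + 0.1) and 0.056 without standard 7 (range -0.84 to 0.056 with each fish left out in turn). A further 6 had no adjusted p by DESeq2 and were left out. The causes of these changes were not tested. Of the 22, 10 in each direction were chosen because their diets did not overlap over the 7 fish. Their direction with a fish left out was therefore largely fixed by that choice. The setting with the adjusted p as the sole criterion used the same fit as the main one. The other feature unit and the gene lists were not run, because transcripts could not be linked to genes.

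At 4045429 counts, a count of 0 in fish C allows a level of up to 1.31 TMM-scaled CPM (3 counts). With 3 or 4 fish per diet and this spread, small differences were not detectable, and large fitted ones did not pass either. ENSDART00000144966.2 and ENSDART00000007961.8, at log2 fold changes of 4.56 and 3.62, were not called by edgeR. DESeq2 called both with fish C (adjusted p = 0.00331 and 0.0299). The 0 edgeR calls therefore do not show that the diets gave equal levels.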
